A study of Homo sapiens with 16 samples.

Results

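A pair of small interfering RNAs against the same transcript, si46 and si47, was compared directly in IMR32 cells. The comparison used the 8 libraries that carry these siRNAs, 4 for si46 and 4 for si47, of 16 libraries in the series. Of 58787 gene identifiers in the count table, the 14193 that passed a filter on low counts were compared, and those genes hold 99.6% to 99.7% of the counts in each of the 8 libraries. IMR32 is a MYCN-amplified human neuroblastoma line, labelled as a neuroblast. All libraries are of total RNA sequenced from the 3′ end, and the table's column names place them at 48 h. Both groups have TPX2 as their target. A non-targeting siRNA (siNTC) and another siRNA against TPX2 (si45), each with 4 libraries, are given where they show which of the pair departs from the rest. The submitters call the 4 libraries of a group biological replicates. The labels do not say whether these were separate cultures or what a replicate number marks, so p-values measure the spread between these libraries, which may be technical.

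An siRNA guides the cell's RNA interference machinery to a matching transcript, which is then cut and degraded. A pair of siRNAs with different sequences but the same target shares the loss of that target, while pairing of the guide's seed with other transcripts differs between them. TPX2 is a spindle assembly factor that activates the kinase AURKA at mitotic microtubules. In cells with functional p53, faulty mitosis can raise p53 target genes and lower genes of DNA replication.

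Levels are given as CPM, the read count scaled to the library's TMM-adjusted size, and differences as log2 values of si47 minus si46, so a positive value means more in si47. Total counts were 5437603 to 7864343 in si46 (mean 6182525 ± 1138623, SD, n = 4) and 5634099 to 6259232 in si47 (6016062 ± 270531, SD, n = 4), with si46 replicate 1 the deepest (two-sided exact permutation test, p = 0.971). That design allows no p below 0.0286. The neuroblast markers GATA3 (6669 to 9182 counts) and MYCN (6237 to 10118) were abundant in all 8 libraries, whereas TH, the first enzyme of catecholamine synthesis, had 8 to 27 counts. Defining markers of Schwann cells (SOX10), T cells (CD3E), endothelium (VWF, CLDN5) and epithelium (KRT8, KRT18) were at 0 in all 8. Of 7 fibroblast markers, COL1A1, PDGFRB and THY1 were present (39 to 347 counts) and COL1A2, COL3A1, DCN and LUM had at most 4.

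TPX2 itself (chromosome 20, 31739271 to 31801805, plus strand, GRCh38) was lowered by both siRNAs. It stood at 90.9, 79.8, 93.8 and 62.2 CPM in si46 replicates 1 to 4, and at 68.7, 69.7, 76.3 and 71.3 CPM in si47. The si46 mean was 24.9% of siNTC and the si47 mean 21.8%, and the lowest library of the 8 belonged to si46. The difference on the log2(CPM + 1) scale was -0.17 (two-sided exact permutation test, p = 0.229, 4 against 4 libraries). In edgeR's quasi-likelihood fit it was -0.20 (SE 0.123, 95% interval -0.45 to 0.06, Benjamini-Hochberg adjusted p = 0.785). Without si46 replicate 4 the log2(CPM + 1) difference was -0.30 and the remaining libraries did not overlap (exact permutation p = 0.0571, the smallest that 3 against 4 allow), and without si46 replicate 3 it was -0.10. With all 8 libraries neither test separates the groups, and the interval still allows si47 to be lower by up to 0.45. AURKA, the kinase that TPX2 activates, differed by -0.15 (SE 0.151, 95% interval -0.47 to 0.17). MYCN, the amplified oncogene of this line, differed by 0.01 (SE 0.154, 95% interval -0.32 to 0.34), at 1283 ± 188 CPM in si46 and 1291 ± 238 in si47 (SD, n = 4).

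Across all 14193 genes the median difference was 0.00, and the 5th and 95th percentiles were -0.47 and 0.49. With the 4 groups as means and no covariate, 7 genes passed an adjusted p under 0.05, which is 0.0493% of those tested, and 1034 (7.29%) had an unadjusted p under 0.05. 3 of them, VDAC1 and SOX4 included, were higher in si47 (0.0211% of genes tested), and ENTREP3, RPL14P1, AK4 and RPL14 were lower (0.0282%). The same model with the replicate number as a block called 108 genes, 0.761% of those tested, 49 higher (0.345%) and 59 lower (0.416%), and these include all 7. Single libraries moved the count of 7. Leaving out replicate 1, 2 or 3 of si47 gave 3, 4 and 23 genes in that order, and leaving out replicate 3 of si46 gave 2. Against siNTC, in the fit with no block, si47 had 1382 genes past the threshold (9.74%, of which 4.91% higher and 4.83% lower) and si46 had 482 (3.4%, of which 2.14% higher and 1.25% lower). The 2 contrasts with siNTC share their control libraries.

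**Figure D1:**
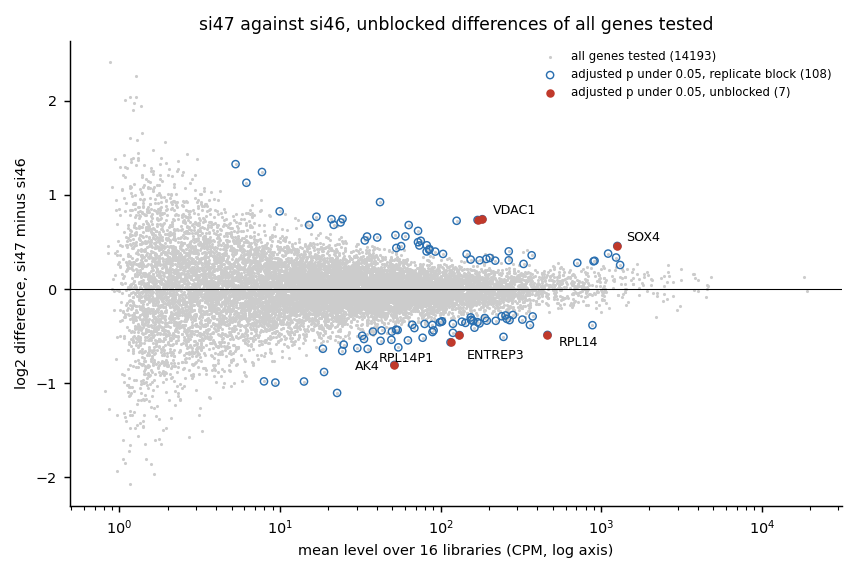
Log2 difference, si47 minus si46, of each of the 14193 genes tested (grey) against its mean level over 16 libraries in CPM (log axis). Filled red points are the 7 genes past an adjusted p under 0.05 with no block and open blue circles the 108 past it once the replicate number is a block. The 108 lie mostly to the right, with 97 of them above the median level of all genes.

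VDAC1 was lower in si46 than in each of the other groups. It encodes the most studied voltage-dependent anion channel of the outer mitochondrial membrane, a pore for ATP, ADP and other metabolites (chromosome 5, 133971915 to 134005133, minus strand). Its level was 117, 122, 113 and 128 CPM in si46 replicates 1 to 4 and 190, 217, 187 and 209 CPM in si47. All si47 libraries stood above all si46 libraries. The difference was 0.74 (SE 0.0855, edgeR adjusted p = 4.62e-06). The siNTC mean was 187 ± 12.6 CPM and the si45 mean 220 ± 14.8 (SD, n = 4), so the si47 level was that of the control. Against siNTC, VDAC1 fell by 0.64 in si46 (edgeR adjusted p = 6.8e-06), while the si47 value was 0.10 (adjusted p = 0.51). Its relatives VDAC2 and VDAC3 differed by -0.03 (95% interval -0.21 to 0.14) and -0.01 (-0.24 to 0.23), si47 minus si46, and did not pass.

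SOX4 rose over siNTC with both siRNAs, and further with si47. It encodes a transcription factor of developing neurons and sympathetic progenitors (chromosome 6, 21592768 to 21598619, plus strand). It was at 1221, 1364, 1115 and 1297 CPM in si46 and at 1743, 1727, 1546 and 1852 CPM in si47, with no overlap. The difference was 0.46 (SE 0.0799, edgeR adjusted p = 0.00806). Against siNTC (941 ± 61.5 CPM, SD, n = 4) SOX4 rose by 0.87 in si47 and 0.41 in si46, and both passed the threshold (edgeR adjusted p = 1.6e-09 and 0.0017). Among the 7 SOX genes tested, SOX11, a close relative, was at -0.03 (SE 0.0811) and SOX12 at -0.02 (SE 0.0912), si47 minus si46. A transcript model without a symbol overlaps SOX4 on the opposite strand, and whether the counting used strand is not given in the sources used here. The SOX4 call was lost without si46 replicate 3 and in a fit of the 8 libraries alone (highest adjusted p = 0.0837).

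**Figure D2:**
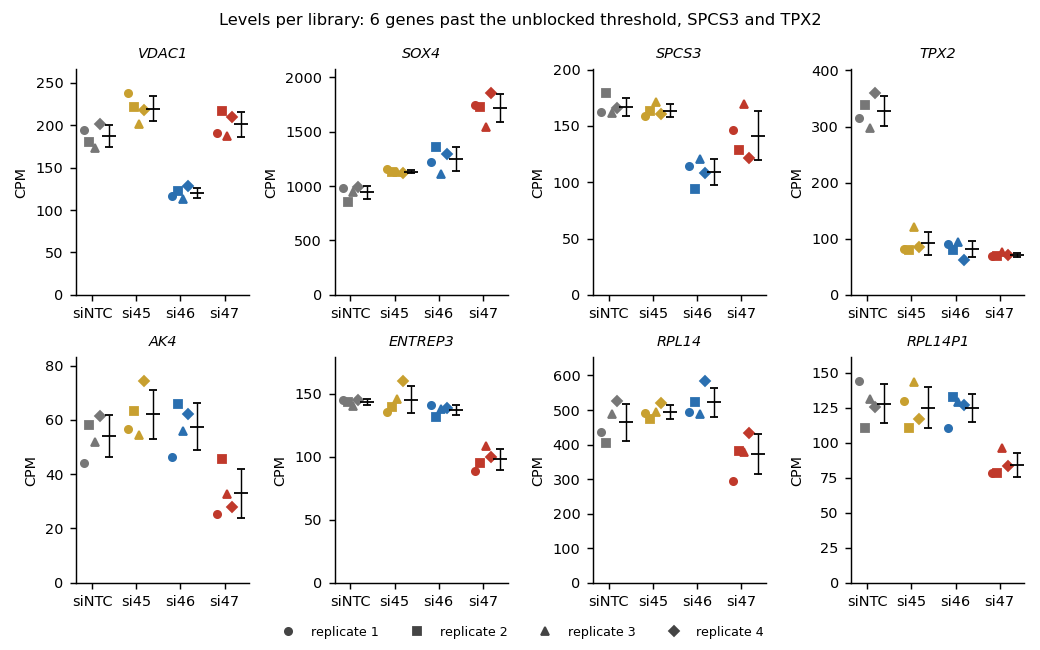
CPM (linear axes from 0) of 6 genes past an adjusted p under 0.05 with no block, of SPCS3, which passed with the block, and of TPX2, in each library of the 4 groups. Marker shape gives the replicate number, and bars beside the points give the mean and SD of 4 libraries. VDAC1 and SPCS3 are lowest in si46, SOX4 is highest in si47, and the 4 genes of the lower row are lowest in si47.

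The 4 genes that were lower in si47 had si46 levels near those of siNTC and si45. ENTREP3 (chromosome 1, 155247205 to 155255483, minus strand) was at 141, 132, 138 and 138 CPM in si46 and at 88.5, 95.4, 108 and 99.6 CPM in si47. The difference was -0.49 (SE 0.0863, edgeR adjusted p = 0.00806). The siNTC libraries averaged 143 ± 2.45 CPM and the si45 libraries 145 ± 10.5 (SD, n = 4), and the si46 value against siNTC was -0.06. AK4, a nucleoside phosphate kinase of the mitochondrial matrix that is known to respond to low oxygen (chromosome 1, 65147549 to 65232145, plus strand), was at 46.2, 65.8, 56.1 and 62.0 CPM in si46 and at 25.5, 45.7, 32.8 and 27.8 CPM in si47. The highest si47 library lay just below the lowest si46 library. The difference was -0.80 (SE 0.155, edgeR adjusted p = 0.0295), against an siNTC mean of 53.9 ± 7.7 CPM (SD, n = 4). The related kinase AK3 was at -0.12 (SE 0.0915) and did not pass. ENTREP3 lost its call without si46 replicate 3, si47 replicate 1 or si47 replicate 2 (adjusted p up to 0.0689). AK4 lost its call without si46 replicate 2, 3 or 4, without si47 replicate 1 or 4 and in the fit of 8 libraries (up to 0.202). A pseudogene, RPS29P7, lies within AK4 on the same strand.

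RPL14, which encodes a protein of the large ribosomal subunit (chromosome 3, 40457292 to 40468587, plus strand), and RPL14P1, its processed pseudogene (chromosome 12, 62965325 to 62965969, plus strand), were both lower in si47. Their sequences are nearly identical, so reads may have been shared between them, which was not tested. In the GENCODE v29 transcripts, all 645 bases of RPL14P1-201 aligned with positions 133 to 777 of RPL14-202 with 8 differences (98.8% identical) and no gap. That stretch is the coding part of RPL14, and the longest run with no difference was 205 bases. A 30-base window at positions 324 to 353 of the RPL14 transcript, across an exon junction, shows 3 of the 8 differences, in capitals. Within the aligned stretch, only reads that cross such positions can tell the copies apart. The window was chosen for its number of differences, and where reads from the 3′ end fell in either copy was not examined. RPL14-202 is 916 bases long, and its ends lie outside that stretch.
RPL14: tccgcacagtgcccAccaGaagtatgtccG
RPL14P1: tccgcacagtgcccGccaAaagtatgtccA

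RPL14 was at 494, 522, 489 and 583 CPM in si46 and at 295, 382, 379 and 435 CPM in si47. RPL14P1 was at 110, 132, 129 and 127 CPM in si46 and at 78.6, 78.2, 96.3 and 83.5 CPM in si47. Neither gene's groups overlapped. The differences were -0.49 for RPL14 (SE 0.0962, edgeR adjusted p = 0.0295) and -0.56 for RPL14P1 (SE 0.102, adjusted p = 0.00931). Against siNTC the si47 values were -0.32 and -0.60, and the si46 values 0.17 and -0.04. RPL14 lost its call in 8 of the 25 other settings. These were without any 1 of the si46 libraries, without si47 replicate 1 or 2, without si45 replicate 4 and in the fit of 8 libraries (adjusted p up to 0.175). RPL14P1 lost it without si46 replicate 3, si47 replicate 1 or si47 replicate 2. How reads that match several copies were counted is not given in the sources used here.

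The replicate number sorted the libraries to some degree. Deviations from the group means correlated between same-numbered libraries of si46 and si47 with r of 0.0854, 0.127, 0.209 and 0.144 for replicates 1 to 4, and between differently numbered ones with r from -0.124 to 0.0741. These values are across genes, which are not independent replicates. The genes called with the block are therefore given beside the unblocked result. Their differences were modest: the median size was 0.46 among the 49 higher genes (0.26 to 1.32) and 0.43 among the 59 lower genes (0.28 to 1.14). Of the 108, 100 had an unadjusted p under 0.05 with no block (7.29% of all genes tested). The si46 and si47 libraries did not overlap in 53 (4.01% of all genes tested), 23 of them higher (2.04% of all genes) and 30 lower (1.97%). The 108 were chosen by the same contrast in the same libraries, so these shares are no separate support for the calls. The count of 108 was 37 without si46 replicate 1, 48 without si46 replicate 3 or si47 replicate 1, 61 without si47 replicate 4, 64 without si47 replicate 2 and 67 without si46 replicate 4.

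Set beside siNTC in the same blocked fit, 35 of the 49 higher genes lay above siNTC in both groups. That si47 was the farther in those follows from how the 49 were chosen. The share of all genes on the same side in both groups was not computed. Of the 49, 22 passed against siNTC in the same direction with both siRNAs. Of all genes tested, that blocked fit called 7.52% higher and 7.96% lower in si47 against siNTC (15.5% in all), and 4.13% higher and 3.43% lower in si46 (7.56% in all). Among the 59 lower genes, 36 passed against siNTC with si47 alone, 12 with both, 8 with si46 alone and 3 with neither. Calls with 1 siRNA alone were counted in either direction. The 59 were chosen by the same contrast in the same fit, which shapes this split. Shares of all genes called with si47 alone, with si46 alone or with both were not computed, so the split is no trait of the 59. The si45 mean was nearer to si46 than to si47 in 38 of the 49 and in 49 of the 59. The same share over all genes was not computed, so these counts are not read as a trait of the called genes. Of all 14193 genes, the blocked fit called 398 for si47 against si45 and 33 for si46 against si45.

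Among the higher genes that passed only with the block, the p53 targets BBC3 and SESN2 had the lowest p. BBC3 encodes PUMA, a BH3-only protein that p53 induces to start apoptosis. It was at 130, 145, 97.8 and 152 CPM in si46 replicates 1 to 4 and at 239, 270, 154 and 207 CPM in si47, against 24.8 ± 2.55 in siNTC (SD, n = 4). Each si47 library stood above each si46 library, and both replicates 3 were the lowest of their groups. The difference was 0.72 with the block (SE 0.11, edgeR adjusted p = 9.19e-04) and 0.73 with none (adjusted p = 0.44). SESN2, a stress-induced inhibitor of mTORC1 signalling, was at 73.0, 84.4, 65.0 and 77.5 CPM in si46 and at 122, 158, 81.0 and 100 CPM in si47. Its groups overlapped, while each si47 library was above the si46 library of its number. The blocked difference was 0.59 (SE 0.107, edgeR adjusted p = 0.00154). CYFIP2, a p53 target in the actin-regulating WAVE complex, rose by 0.52 with the block (SE 0.0978, edgeR adjusted p = 0.00195).

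ATF5 differed from these genes in its si46 level. This transcription factor of the unfolded protein response of mitochondria was at 28.1, 45.3, 33.8 and 30.9 CPM in si46 and at 49.7, 93.8, 66.9 and 51.5 CPM in si47. The si46 mean of 34.5 ± 7.54 CPM was that of siNTC (33.9 ± 8.07) and si45 (34.1 ± 5.32), so si47 was the group away from the rest. The blocked difference was 0.91 (SE 0.154, edgeR adjusted p = 0.0023), and with no block it was 0.92 (adjusted p = 0.124). ATF5 overlaps NUP62 and IL4I1 on the opposite strand. ARC, an activity-regulated gene of neurons, rose by 0.73 over si46 (SE 0.139, edgeR adjusted p = 0.00192, block), and RAB4A, a GTPase of endosome recycling, by 0.50 (SE 0.0964, adjusted p = 0.00243, block). SNORD13, a small nucleolar RNA, was at 74.1 ± 15.9 CPM in si46, 119 ± 32.6 in si47 and 7.03 ± 1.83 in siNTC (SD, n = 4). Its blocked difference was 0.67 (SE 0.124, edgeR adjusted p = 0.00381), with TTI2 on the opposite strand. How fully the 3′ end libraries capture such a small RNA was not tested.

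**Figure D3:**
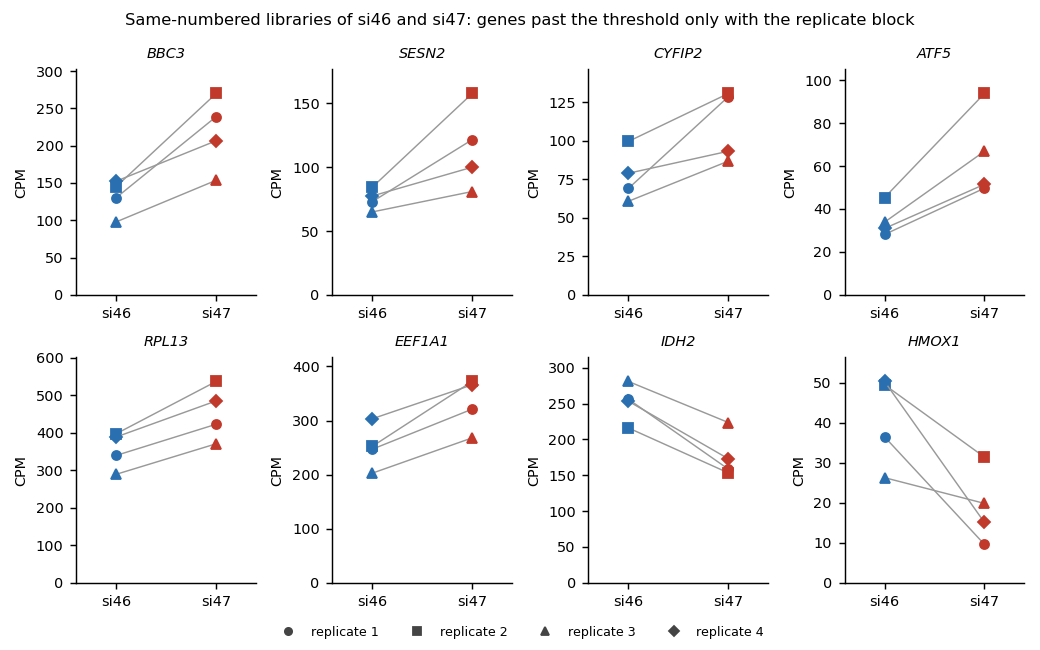
CPM (linear axes from 0) of 8 genes past an adjusted p under 0.05 when the replicate number is a block and not otherwise, in si46 (blue) and si47 (red). Lines join libraries of the same number, marker shape gives the number. BBC3, SESN2, CYFIP2, ATF5, RPL13 and EEF1A1 are higher in si47 along each line, and IDH2 and HMOX1 are lower along each line.

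In a group of the lower genes with the block it was si47 that fell below siNTC. IDH2, the NADP-dependent isocitrate dehydrogenase of mitochondria, was at 256, 216, 281 and 253 CPM in si46 and at 159, 153, 224 and 173 CPM in si47. The groups overlapped through si46 replicate 2 and si47 replicate 3. The blocked difference was -0.51 (SE 0.0789, edgeR adjusted p = 5.93e-05), the siNTC mean was 292 ± 34.1 CPM (SD, n = 4), and with no block the adjusted p was 0.0972. PFKP, the platelet isoform of the glycolytic enzyme phosphofructokinase, was at 97.1, 106, 101 and 98.5 CPM in si46 and at 75.9, 77.8, 68.2 and 75 CPM in si47 (-0.44, SE 0.0888, edgeR adjusted p = 0.00381, block). METAP2, which removes the first methionine of new proteins, fell to 744 ± 89.5 CPM in si47 from 970 ± 44.4 in si46 (SD, n = 4), and siNTC was at 912 ± 61 (edgeR adjusted p = 0.00125, block). SNRPD2, a core protein of spliceosomal snRNPs, was at 388 ± 26.4 CPM in si46 and 298 ± 46.7 in si47, and NETO2, an auxiliary subunit of kainate receptors, at 124 ± 6.81 and 90.2 ± 10.8 (SD, n = 4). Both passed with the block (edgeR adjusted p = 0.00243 and 0.00288). TXNRD1, a thioredoxin reductase chosen after its values were seen, was at 108 ± 9.19 CPM in si46 and 85.4 ± 8.61 in si47, and its siNTC level was 110 ± 7.86 (-0.34, SE 0.0874, edgeR adjusted p = 0.0411, block).

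In another group of lower genes it was si46 that stood away from siNTC. HMOX1 encodes heme oxygenase 1, an enzyme induced by oxidative stress. It was at 36.5, 49.5, 26.3 and 50.3 CPM in si46 and at 9.59, 31.4, 19.8 and 15.1 CPM in si47, with siNTC at 14 ± 2.87 and si45 at 17.2 ± 6.01 (SD, n = 4). The groups overlapped only through si47 replicate 2. The blocked difference was -1.14 (SE 0.199, edgeR adjusted p = 0.0027), and the unblocked one -1.10 (adjusted p = 0.405). KCNJ6, a G protein-gated potassium channel subunit, was at 29.8 ± 5.95 CPM in si46 against 16.1 ± 4.91 in si47 and 12.7 ± 2.99 in siNTC (SD, n = 4), with a blocked difference of -0.91 (SE 0.167, edgeR adjusted p = 0.00144). AHNAK, a very large scaffold protein of the cell cortex, was at 93.4 ± 6.03 CPM in si46, 65.3 ± 7.18 in si47 and 70.3 ± 10.6 in siNTC (edgeR adjusted p = 0.00109, block). WFIKKN2, a secreted inhibitor of growth factors of the TGF-beta family, was at 66.4 ± 11.9, 43.3 ± 4.93 and 46.7 ± 7.25 CPM in the same order (edgeR adjusted p = 9.1e-04, block). Its si45 level, 61.9 ± 8.49 CPM, was also above siNTC (edgeR adjusted p = 0.0159, block), so si46 was not alone in this gene. In the opposite direction, SPCS3, a subunit of the signal peptidase, was low in si46, at 109 ± 11.5 CPM, against 141 ± 21.5 in si47 and 167 ± 8.01 in siNTC (edgeR adjusted p = 0.0153, block).

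A pair of kinesin genes, also chosen after their values were seen, moved in opposite directions. KIF5B, the widely expressed heavy chain of kinesin-1, was at 297 ± 21.4 CPM in si46 and 358 ± 21.1 in si47 (0.27, SE 0.0683, edgeR adjusted p = 0.0388, block). KIF5C, a neuronal heavy chain of the same motor, was at 278 ± 16.2 CPM in si46 and 229 ± 15.2 in si47 (-0.28, SE 0.0706, edgeR adjusted p = 0.0362, block). In both genes the groups did not overlap, and neither passed with no block.

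The genes were next read by 21 lists of pathway members. Levels are from whole cultures, so a different share of cells in a state and a different RNA level per cell cannot be told apart. A list is described by the median of its members' unblocked differences and by its counts, beside the same for all genes, of which 50.3% were positive.

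p53 target genes were higher in si47 as a group. Of 38 tested, 36 had a positive difference, and the median was 0.34 (0.00 for all genes). 21 of the 38 had an unadjusted p under 0.05, all of them higher, against 3.44% of all genes in that direction. With the block, 7 of 38 passed and all were higher (0.345% of all genes): BBC3, SESN2, CYFIP2, BTG2, ZMAT3, MDM2 and RPS27L. That count was 2 without si46 replicate 1 or si47 replicate 1, 3 without si46 replicate 3, and 4 without si47 replicate 2. It was larger, at 11, without siNTC replicate 3 and with limma-voom, 12 with no low-count filter and 14 in the 8 libraries alone. With no block 0 of 38 passed in edgeR, DESeq2 or limma-voom. MDM2, the ubiquitin ligase that limits p53, was at 225, 263, 187 and 232 CPM in si46 and at 297, 357, 215 and 272 CPM in si47, which overlap (0.32, SE 0.0791, edgeR adjusted p = 0.0292, block). BTG2, an antiproliferative gene, was at 14.8 ± 2.3 CPM in si46 and 23.8 ± 4.41 in si47 (SD, n = 4), with no overlap (0.68, SE 0.174, edgeR adjusted p = 0.0419, block). CDKN1A, the cell cycle inhibitor p21, was at 379, 414, 365 and 509 CPM in si46 and at 583, 649, 406 and 551 CPM in si47. Its difference of 0.39 (SE 0.236, edgeR adjusted p = 0.785) passed in neither fit. BAX, the pore-forming protein of apoptosis, was at 36.5 ± 4.06 CPM in si46 and 48.7 ± 2.54 in si47 (SD, n = 4) and passed in neither fit. Both siRNAs raised the list over siNTC. The median was 1.53 in si47 and 0.98 in si46, with 34 and 28 members past the threshold, all higher (4.91% and 2.14% of all genes).

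The list level in each library shows the same order with overlap. As the median of the members' log2 CPM above the siNTC mean, the p53 targets were at 0.91, 1.16, 0.84 and 1.23 in si46 replicates 1 to 4 and at 1.58, 1.58, 1.11 and 1.32 in si47. Replicate 3 was the lowest of both groups. Between same-numbered libraries the members' median difference was 0.55, 0.39, 0.21 and 0.20 for replicates 1 to 4. The median stayed between 0.29 and 0.40 in all 25 other settings.

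S phase genes, which encode proteins of DNA replication, were lower in si47. Of 44 tested, 42 had a negative difference, with a median of -0.17. 12 of the 44 had an unadjusted p under 0.05, all lower (3.85% of all genes). With the block 3 of 44 were called, all lower (0.416% of all genes): HELLS, ATAD2 and WDR76. Without si47 replicate 1 it was 0, and without si46 replicate 1, si46 replicate 3 or si47 replicate 2 it was 1. It was 5 without siNTC replicate 3 or si46 replicate 2, with no low-count filter and in the 8 libraries alone. The median was -0.11 without si47 replicate 1. HELLS, a chromatin remodeller of DNA methylation, was at 269, 263, 259 and 246 CPM in si46 and at 199, 216, 207 and 204 CPM in si47, with no overlap (-0.33, SE 0.0706, edgeR adjusted p = 0.00803, block). ATAD2, a bromodomain ATPase that acts with E2F and MYC, was at 200 ± 22.5 CPM in si46 and 159 ± 21.1 in si47 (-0.34, SE 0.0752, edgeR adjusted p = 0.0113, block). Against siNTC the list's median was -0.53 in si47 and -0.36 in si46, with 32 and 14 members lower past the threshold (4.83% and 1.25% of all genes). Outside the list, and chosen after their values were seen, MCM10 (-0.42), RFC3 (-0.32), E2F1 (-0.35), POLQ (-0.63) and FBXO5 (-0.39) also passed with the block. MCM10 starts replication forks, RFC3 loads the sliding clamp, and E2F1 drives S phase transcription.

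Mitotic genes differed less. The 52 G2M genes had a median of -0.08, with 36 negative and 16 positive, and 0 past either threshold. Of the 52, 6 had an unadjusted p under 0.05 (7.29% of all genes), 2 of them higher. Of the 25 spindle assembly genes, which include partners of TPX2, 18 were negative and 7 positive, with a median of -0.09, 1 at an unadjusted p under 0.05 and 0 past either threshold. Against siNTC both siRNAs had G2M medians below 0, -0.34 in si47 and -0.27 in si46. KIF11, a motor of spindle assembly that was chosen after its values were seen, was at 75.6 ± 4.16 CPM in si46 and 73.3 ± 19.2 in si47 (SD, n = 4). The histone list, of genes expressed with DNA replication, had 14 positive and 16 negative among 30, a median of -0.03 and 2 at an unadjusted p under 0.05. How fully the 3′ end libraries capture these histone RNAs was not tested.

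Genes of the ribosome were slightly higher in si47. Of 78 ribosomal protein genes, 72 had a positive difference, with a median of 0.15. 20 had an unadjusted p under 0.05, 18 higher and 2 lower (3.44% and 3.85% of all genes). With the block 7 were higher (0.345% of all genes), namely RPL13, RPL34, RPL30, RPS15A, RPL4, RPL19 and RPL35A, and 1 was lower (0.416%), RPL14. The 7 became 0 without si46 replicate 3, 1 without si46 replicate 1 or si47 replicate 2, and 2 without si47 replicate 4. RPL14 moved against the direction of the list and passed in each of these fits. RPL34, of the large subunit, was at 936, 1190, 896 and 1300 CPM in si46 and at 1200, 1580, 1150 and 1670 CPM in si47 (0.38, SE 0.0751, edgeR adjusted p = 0.004, block). Its groups overlapped, and each si47 library was above the si46 library of its number. RPL13 rose by 0.36 with the block (SE 0.0719, edgeR adjusted p = 0.00381), at 354 ± 50 CPM in si46 and 454 ± 72.5 in si47 (SD, n = 4). Its processed pseudogene RPL13P12 was at 0.28 (SE 0.105) and did not pass. EEF1A1, the elongation factor that brings aminoacyl-tRNA to the ribosome, was at 251 ± 41.2 CPM in si46 and 332 ± 48.3 in si47 (0.40, SE 0.0776, edgeR adjusted p = 0.00243, block). The 29 translation initiation genes had a median of 0.04, with 0 members at an unadjusted p under 0.05. Against siNTC, 43 of the 78 ribosomal protein genes were higher past the threshold in si47 (4.91% of all genes) and 2 in si46 (2.14%), with medians of 0.31 and 0.15.

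**Figure D4:**
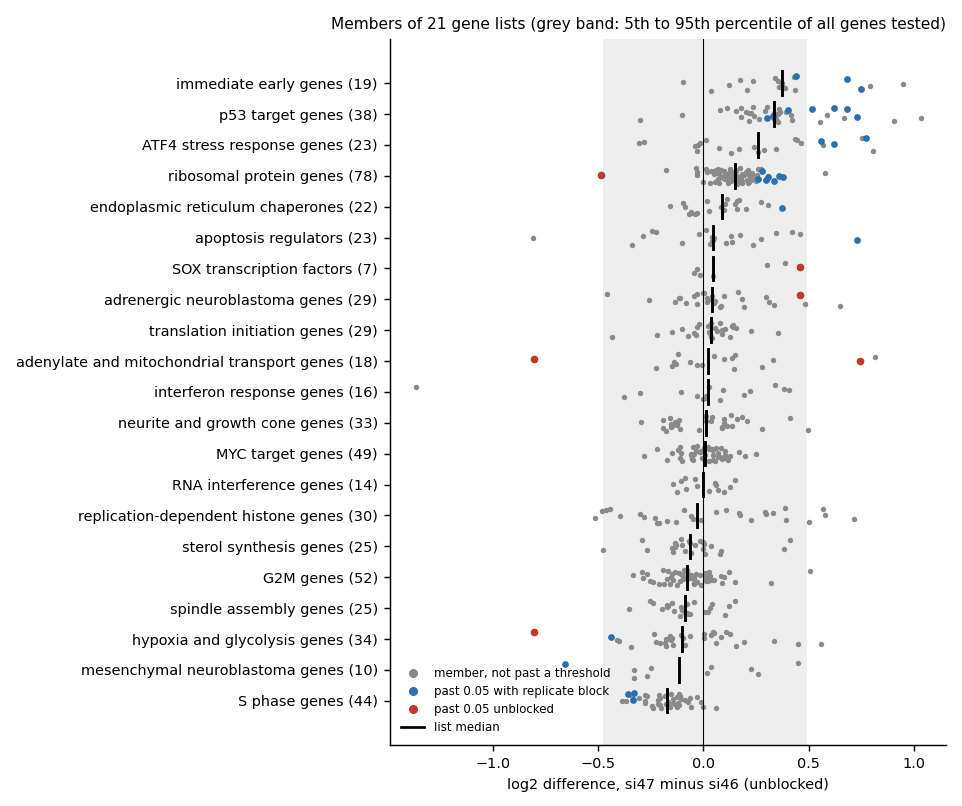
Log2 difference, si47 minus si46 with no block, of each tested member of 21 gene lists (number tested in brackets). Black ticks are list medians, the grey band is the 5th to 95th percentile of all genes tested, red points passed an adjusted p under 0.05 with no block and blue points with the replicate block only. The median is 0.34 for p53 targets, 0.15 for ribosomal protein genes and -0.17 for S phase genes.

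Stress-induced genes were mostly higher in si47. Of 23 genes of the ATF4 stress response, 17 were positive, with a median of 0.26, which was 0.15 without si47 replicate 1 or 2. 8 had an unadjusted p under 0.05 (7.29% of all genes), 7 of them higher (3.44%). With the block 3 were higher (0.345%): SESN2, which is also on the p53 target list, DDIT4 and DDIT3. Those 3 became 1 without si46 replicate 1, si47 replicate 2, si47 replicate 4 or si45 replicate 2. DDIT3 encodes the stress factor CHOP and was at 14.3, 24.4, 12.5 and 13.4 CPM in si46 and at 18.2, 42.5, 18.1 and 31.2 CPM in si47. The groups overlapped through si46 replicate 2, and both replicates 2 were the highest of their groups (0.74, SE 0.189, edgeR adjusted p = 0.0396, block). DDIT4, an inhibitor of mTORC1, was at 36.9 ± 4.97 CPM in si46 and 54.2 ± 15.3 in si47 (0.53, SE 0.132, edgeR adjusted p = 0.0362, block). ATF4 itself differed by 0.07 (SE 0.102). The list level above siNTC was 0.12, 0.42, -0.03 and 0.23 in si46 and 0.55, 0.56, 0.026 and 0.51 in si47. In both groups replicate 3 was at about the siNTC level. Of 19 immediate early genes, induced within minutes of a stimulus, 18 were positive, with a median of 0.37, which was 0.21 without si46 replicate 3. 4 had an unadjusted p under 0.05, all of them higher (3.44% of all genes). With the block 3 were higher (0.345%): ARC, IER3 and BTG2, which is also on the p53 target list. Leaving out 1 library lowered these 3 to 1 for si46 replicates 1, 3 and 4, si47 replicates 1 and 2 and si45 replicates 2 and 4. The 22 endoplasmic reticulum chaperones had a median of 0.09 and 1 call with the block, SPCS3, which was lost without si46 replicate 2 or 3 and without si47 replicate 1 or 3.

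**Figure D5:**
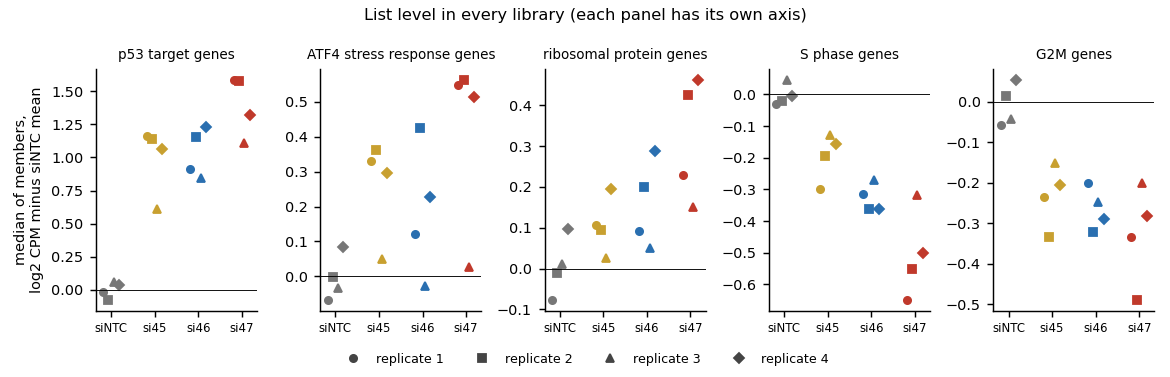
Median over list members of log2 CPM minus the siNTC mean, in every library of the 4 groups, for 5 lists, and each panel has its own axis. Marker shape gives the replicate number. Levels of p53 targets, ATF4 genes and ribosomal protein genes reach higher in si47 than in si46 and those of S phase genes reach lower, and among the si47 libraries replicate 3 lies nearest to siNTC in all 5 panels.

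The lists of cell identity and the others in this paragraph had medians from -0.11 to 0.05, with single members apart in both directions. Among 29 adrenergic neuroblastoma genes 19 were positive and the median was 0.04. An unadjusted p under 0.05 was found for 4 (7.29% of all genes), 3 of them higher, and SOX4 was the one call (0.345% of all genes higher with the block). The 10 mesenchymal genes that could be tested of 20 listed had a median of -0.11, 5 of them positive. LGALS1, a secreted galectin on that list, was at 24.9, 17.1, 42.9 and 47.7 CPM in si46 and at 20.3, 14.5, 19.7 and 29.3 CPM in si47 (-0.61, SE 0.153, edgeR adjusted p = 0.0346, block). That call was lost without si46 replicate 1, 3 or 4 and without si47 replicate 1, 3 or 4. MYC target genes (49 tested) and neurite and growth cone genes (33) both had a median of 0.01 and 0 edgeR calls in either fit, with 3 and 1 at an unadjusted p under 0.05. The 34 hypoxia and glycolysis genes had a median of -0.10, with 4 at an unadjusted p under 0.05, all lower (3.85% of all genes). With the block 2 were called lower, AK4 and PFKP (0.416% of all genes). The 18 adenylate and mitochondrial transport genes had 9 on each side of 0, with 3 at an unadjusted p under 0.05 (7.29% of all genes). VDAC1 was called higher (0.345% of all genes with the block) and AK4 lower (0.416%). The 23 apoptosis regulators had a median of 0.05 and a range of -0.81 to 0.73. Of these, 5 had an unadjusted p under 0.05 (7.29% of all genes), 2 of them higher. BBC3, which is also on the p53 target list, was the one call, with the block (0.345% of all genes higher).

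Genes that respond to double-stranded RNA or take part in RNA interference did not separate the siRNAs. The 16 interferon response genes tested of 37 listed had a median of 0.02, with 10 positive, 1 at an unadjusted p under 0.05 and 0 past either threshold. The 14 RNA interference genes, such as the slicing and loading factors, had a median of 0.00, a range of -0.14 to 0.15 and 0 at an unadjusted p under 0.05. The 25 sterol synthesis genes had a median of -0.06, 18 of them negative, and 0 past either threshold. Of the 25, 4 had an unadjusted p under 0.05 (7.29% of all genes), 2 of them higher. Each of the lists with 0 calls in both edgeR fits (spindle, G2M, histone, translation initiation, MYC, neurite, interferon, RNA interference and sterol genes) also had 0 by DESeq2 and by limma-voom, with and without the block. Other blocked fits made 1 or 2 calls in some of them. In the G2M list these were 2 lower without the libraries numbered 3, and 1 lower in the 8 libraries alone or without siNTC replicate 3, si47 replicate 1 or si47 replicate 3. Without si47 replicate 3 the spindle and MYC lists each had 1 lower, and without siNTC replicate 2 the neurite list had 1 higher. The 8 libraries alone gave 1 call in the neurite and histone lists, leaving out the libraries numbered 3 gave 1 in the spindle and histone lists, and no low-count filter gave 1 in the histone list.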

How the data were processed

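Counts per gene were deposited by the authors as whole numbers for 58787 Ensembl identifiers in 16 libraries, with no normalization. Per the submitters' processing notes, FastQC 0.11.7, STAR 2.7.2b, edgeR 3.36.0, limma 3.50.3 and GRCh38 were used. Per the labels' protocols, libraries came from a 3′ end QuantSeq kit with 15 PCR cycles. The counter, annotation, strand use, treatment of multiple matches and of PCR duplicates are not given in the sources used here. Of the deposited identifiers, 0 were placed on the mitochondrial genome, so its genes were not analysed here.

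Each column carries an siRNA and a replicate number, which named its sample. A gene name table gave symbols for 58434 identifiers, and positions came from GENCODE v29 on GRCh38 (58515). Pairs of libraries within si46 and si47 differed by a chi-square of 5.08 to 9.80 per degree of freedom, above sampling noise. The main test was that of edgeR 4.0.16, after filterByExpr (minimum count 10, minimum total 15) and TMM, in 1 robust quasi-likelihood model of 4 group means, and again with the replicate number as a block, with Benjamini-Hochberg adjustment within a contrast and a threshold of 0.05. The fit was tested on simulated data. SE is the log2 difference divided by the square root of F. Alternatives were other scaling, DESeq2 1.42.0, limma-voom (limma 3.58.1), other filters and leaving out libraries.

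Named genes were TPX2, AURKA and MYCN, all unblocked calls, the 12 lowest p in each direction with the block (mean count of at least 20) and up to 2 members of each list. Relatives of called genes and further list members were named after their values were seen. Members, lists and rules were chosen with earlier results of these data known, so list counts are descriptions. A few items that these rules named are not reported here.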

Additional observations from a re-analysis of the deposited data

Results flagged for a closer look

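In 5 of 136 groups of 4 libraries 1 library lay far from the other 3, and chance gives about 6.8. SNORD13 was at 168 CPM in si47 replicate 1, against 101 to 106 in the others. DDIT3 was at 24.4 CPM in si46 replicate 2 (others 12.5 to 14.3), and TM7SF2, an enzyme of sterol synthesis, was at 24.4 in si46 replicate 1 (others 16.4 to 16.5). The level of the ATF4 stress response genes above siNTC was 0.026 in si47 replicate 3 (others 0.51 to 0.56). The level of the sterol synthesis genes was -0.37 in si47 replicate 2 (others -0.22 to -0.20).

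In 6 named genes the effects of the 2 siRNAs differed by a direct test (edgeR, adjusted p under 0.05). The log2 differences, si47 minus si46, were 0.74 for VDAC1, 0.46 for SOX4, -0.49 for ENTREP3, -0.56 for RPL14P1, -0.80 for AK4 and -0.49 for RPL14.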

How the results depend on the processing

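The 7 calls with no block were also made with RLE or upper-quartile factors, limma-voom and at least 10 counts in every library. DESeq2 called 28 genes (9 higher, 19 lower), no low-count filter gave 44 (23 higher, 21 lower), an adjusted p under 0.1 gave 15, a 1.5-fold minimum gave 3 and a fit of the 8 libraries alone gave 4. The count ran from 2 without si46 replicate 3 to 23 without si47 replicate 3, with 3 without si47 replicate 1 and 4 without si47 replicate 2. VDAC1 passed in all 25 other settings, and the 7 genes kept their direction in all of them. By number, each of the 8 libraries correlated best with the library of its own number, a hint from the data and not from the design. Replicate 1 did not reach the 0.1 asked of every pair. The replicate block gave 108 calls, 170 in the 8 libraries alone, 165 with limma-voom and 97 without the 4 libraries numbered 3, of which 71 were among the 108. Leaving out single libraries gave 37 (si46 replicate 1) to 143 (siNTC replicate 3), with 48 without si46 replicate 3 or si47 replicate 1, 61 without si47 replicate 4, 64 without si47 replicate 2 and 67 without si46 replicate 4. These settings beyond the block on 16 and on 8 libraries were chosen after seeing the data. The TPX2 difference was -0.30 to -0.10 with single libraries left out. The difference in total counts was -414771 to 394143, and above 0 only without si46 replicate 1. Of the named genes, MYCN alone changed sign, in 4 of 25 settings (-0.11 to 0.10), and it passed in none. List medians changed sign in some settings for mesenchymal, SOX, neurite, MYC, adenylate, interferon, RNA interference and histone genes. The median SE of 0.183 limits what 4 libraries a group can show.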

Other observations

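A further 4 genes passed with the replicate block and were named after their values were seen. NHLH1, a transcription factor of newborn neurons, was at 79.0 ± 8.01 CPM in si46 and 109 ± 17.4 in si47 (SD, n = 4), with no overlap (0.46, SE 0.0973, edgeR adjusted p = 0.00601). CPE, which processes neuropeptide precursors, was at 78.4 ± 8.8 and 103 ± 7.59 CPM, with no overlap (0.40, SE 0.0921, edgeR adjusted p = 0.0153). GPX1, a peroxide-reducing enzyme, was at 55.0 ± 8.65 CPM in si46, 81.3 ± 17.4 in si47 and 49.6 ± 5.94 in siNTC (0.55, SE 0.113, edgeR adjusted p = 0.00493). INPP5D, a phosphoinositide phosphatase best known from blood cells, was at 4.94, 8.73, 2.53 and 6.33 CPM in si46, at 12.6, 18, 4.2 and 14.4 CPM in si47 and at 0.648 ± 0.32 in siNTC (1.10, SE 0.283, edgeR adjusted p = 0.0419). Its si47 replicate 3 lay within the si46 range.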
